A study of Rattus norvegicus with 36 samples.

Results

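Normal-looking colon of Pirc rats was set against colon of wild-type (WT) rats, both fed spinach, for 559 mature miRNAs measured by small RNA-seq. The comparison was taken by sample name, with the 3 libraries PSN1 to PSN3 against the 3 libraries WSN1 to WSN3, which are 6 of the 18 small RNA libraries and 6 of the 36 samples in the series. PSN libraries came from colon without tumor of male Pirc rats (F344/NTac-Apc am1137), an F344 line with a mutation in the tumor suppressor gene Apc that develops colon polyps. The labels describe it as without tumor, and per the study each such sample was paired with a tumor of its own rat (the group PST), so it is tissue beside tumors and not a stage that precedes them. WSN libraries came from colon of male WT F344 rats without the mutation. Rats of both groups ate AIN93 diet with 10% (w/w) freeze-dried baby spinach (SPI) from 4 weeks of age, and tissue was taken at 30 weeks. The control diet groups were PCN (normal-looking Pirc colon), WCN (WT colon) and PCT (Pirc tumors), which ate AIN93 without spinach, and PST were Pirc tumors on SPI. Each group had 3 libraries. The study describes them as biological replicates. PSN shares rats with PST, and PCN with PCT, while PSN and WSN share none. The question was how the miRNAs of the colon differ with the Apc genotype in tissue without tumor, in rats on SPI.

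A miRNA is a short RNA cut from a hairpin precursor, and either arm of the hairpin (5p or 3p) can be kept. It pairs through its seed, bases 2 to 8, with sites in mRNAs and lowers their translation or stability, so miRNAs that share a seed share many targets. Apc restrains Wnt signaling, and its loss is the usual first step to a colorectal adenoma. In colon, miR-192, miR-194, miR-215 and the miR-200 family mark the epithelium, miR-143 and miR-145 mark smooth muscle and other mesenchymal cells, and miR-146a and miR-150 are known from immune cells. Tissue of this kind holds several cell types, so fewer cells of a type and less RNA per cell cannot be told apart.

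Mature sequences of the miRNAs on which the results turn are shown first, because the seed decides which of them act alike. They were taken from RefSeq (build GRCr8), which gave a sequence for 510 of the 559 miRNAs and 62 of the 70 named by the rule used here. Each is written 5′ to 3′ with the seed in capitals.
miR-770-5p: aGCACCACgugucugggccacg
miR-141-3p: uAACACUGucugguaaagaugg
miR-200c-3p: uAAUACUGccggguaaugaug
miR-221-3p: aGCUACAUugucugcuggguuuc
miR-222-3p: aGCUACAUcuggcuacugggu
miR-143-3p: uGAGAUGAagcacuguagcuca
miR-145-5p: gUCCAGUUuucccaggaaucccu
miR-214-3p: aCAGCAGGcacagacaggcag
miR-25-3p: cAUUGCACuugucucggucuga
miR-106b-5p: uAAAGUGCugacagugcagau
miR-148a-3p: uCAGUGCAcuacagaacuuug
miR-146a-5p: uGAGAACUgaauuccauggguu
Among these, miR-221-3p and miR-222-3p share their seed, and miR-141-3p and miR-200c-3p, which come from neighbouring hairpins, do not.

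The values, called signal here, are reads of a miRNA over a factor that is particular to its library. By the steps of the values, reads summed over all miRNA names were 5376082, 3344089 and 4029233 in PSN and 1882461, 4261393 and 3263282 in WSN. A read counted under several names enters these sums more than once, so they can overstate the depth. In each library, 404 to 466 miRNAs were above 0. The most abundant miRNA was miR-192-5p in PSN3 and miR-143-3p in the other 5. On log2(signal + 0.5), libraries correlated at 0.967 to 0.977 within PSN and at 0.966 to 0.976 within WSN. Between PSN and WSN the correlation was 0.963 to 0.980, about the range within a genotype. All pairs of the 18 libraries, tumors among them, lay at 0.920 to 0.980. Correlations this high across all pairs cannot tell whether a library is outlying. The point mutation in Apc cannot be checked from these values. Of all miRNAs tested, 108 formed 52 sets with nearly the same value in every library, such as miR-200a-3p with miR-141-3p, let-7g-5p with let-7i-5p and miR-148a-3p with miR-148b-3p. Of the 48 such miRNAs whose sequence could be set against that of their set, 28 were complementary to it over at least 12 bases (miR-3557-3p and miR-378a-5p over 22). Members of a set cannot be told apart here and are described together or under a single name that stands for the set. Those under a single name include miR-1-3p, miR-29a-3p, miR-30d-5p, miR-31a-5p, miR-101a-3p, miR-122-5p, miR-126a-5p, miR-183-5p, miR-196b-5p and miR-210-3p.

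A miRNA was called at an adjusted p under 0.05, from limma with Benjamini-Hochberg adjustment over the 494 miRNAs tested, and fold changes are differences on the log2(signal + 0.5) scale, PSN over WSN. A single miRNA was called, which is 0.202% of those tested, and it was higher in PSN. At an unadjusted p under 0.05 there were 26 higher and 33 lower miRNAs. The median log2 fold change was 0.03 and the mean size was 0.51, with 256 miRNAs above 0 and 225 below. For 42 miRNAs every PSN library was above every WSN library (8.5%), and for 36 every PSN library was below (7.29%). With each set of nearly the same values counted once, these were 35 and 29 of 438. Of the 98 miRNAs with a mean signal of at least 1000, 0 differed by 1 or more on the log2 scale, whereas 43 of the 176 with a mean under 10 did, where the median SE was 0.96.

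**Figure D1:**
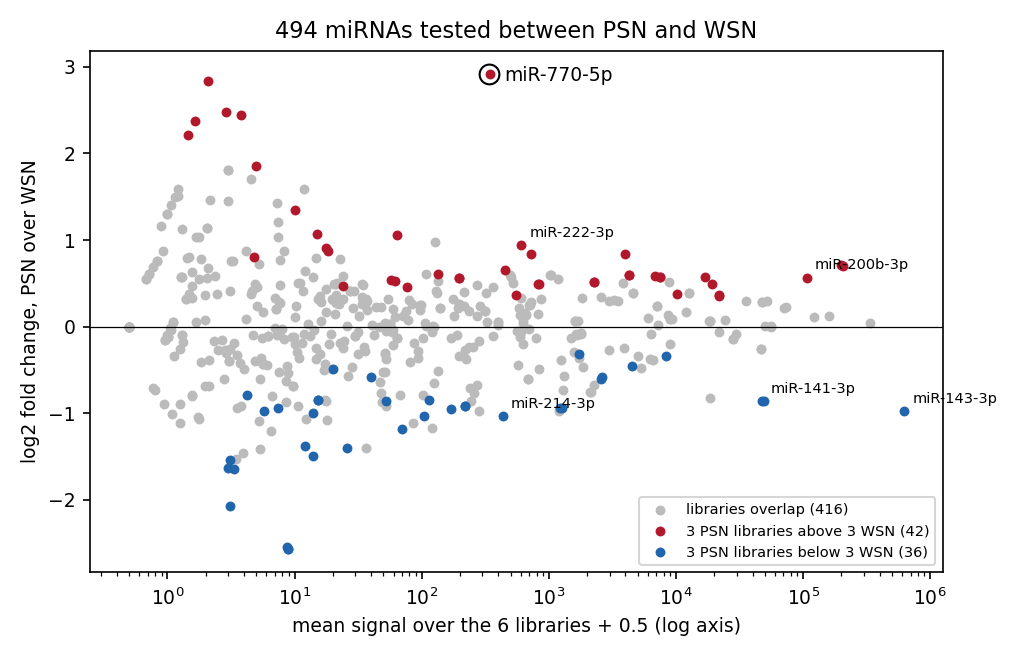
Log2 fold change of PSN over WSN (y axis) against mean signal over the 6 libraries (x axis, log scale) for the 494 miRNAs tested, with colors for miRNAs whose PSN libraries lay above (42) or below (36) all WSN libraries. miR-770-5p, circled at 2.91, was the only miRNA called, and fold changes of low miRNAs on the left scattered most.

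miR-770-5p was the miRNA that rose in PSN. Its gene lies in the imprinted Dlk1-Dio3 region, a large cluster of miRNAs expressed from the maternal chromosome, at chr6:134298094-134298115 (+ strand, GRCr8). The signal was 608, 425 and 711 in PSN1 to PSN3 and 28.6, 199 and 73.8 in WSN1 to WSN3. Every PSN library was above every WSN library, and WSN2 was the closest to PSN. The means were 581 ± 145 in PSN and 101 ± 88.3 in WSN (SD, n = 3 each), a log2 fold change of 2.91 (SE 0.52, 95% interval 1.83 to 3.99, limma adjusted p = 0.00715). In reads, taking the step of the values as 1 read, these were 1152, 402 and 1106 in PSN and 19, 240 and 83 in WSN.

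The call on miR-770-5p rested on few libraries. The adjusted p was 0.0602 without PSN3, 0.0701 without WSN1 and 0.0531 without WSN3, 0.379 in a fit of the 6 libraries alone and 0.105 without trend and robust moderation, with a log2 fold change of at least 2.22 in each of these fits.

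The order of the groups for miR-770-5p was not the same on the 2 diets. On the control diet its signal was 18, 48.9 and 28.6 in PCN and 131, 139 and 101 in WCN, so that every Pirc library lay below every WT library (log2 fold change -2.05, SE 0.52, adjusted p = 0.375). The difference between the genotype effects on SPI and on control diet was 4.96 on the log2 scale (SE 0.74, 95% interval 3.43 to 6.49, adjusted p = 5.46e-04 from limma), and miR-770-5p was the only one of 494 miRNAs called in that interaction (0.202%). Between PSN and PCN the log2 fold change was 4.25 (adjusted p = 2.70e-05), again with 1 miRNA called (0.202%), and this comparison shares the PSN libraries. In tumors the signal was 158, 552 and 257 in PST and 47.5, 45.4 and 42.7 in PCT. By median, PSN was highest at 608, followed by PST at 257, WCN at 131, WSN at 73.8, PCT at 45.4 and PCN at 28.6, and the libraries of WSN overlapped with those of every other group except PSN.

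**Figure D2:**
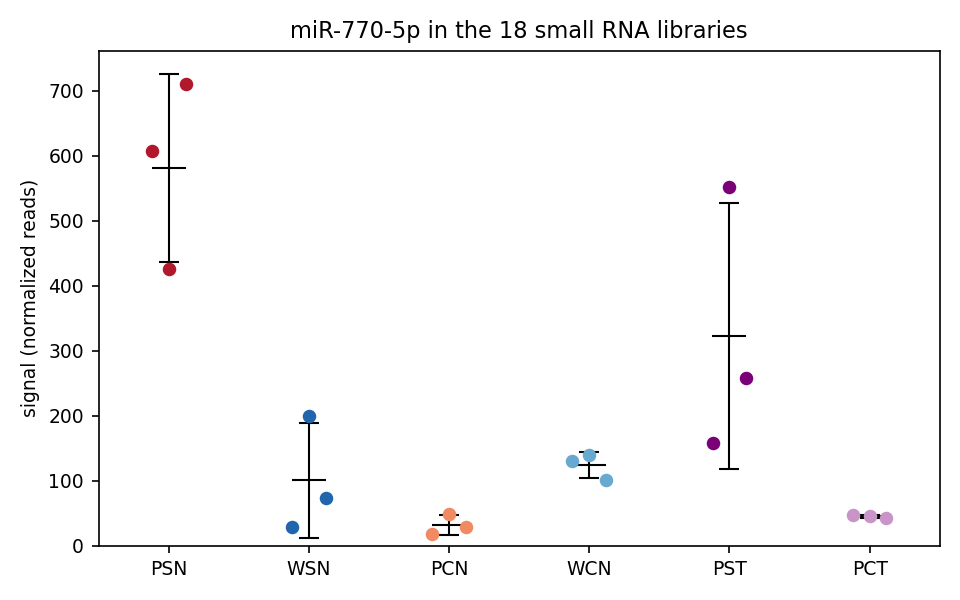
Signal of miR-770-5p (y axis) in each of the 18 small RNA libraries by group, with points for libraries and bars for the mean and SD of 3. PSN libraries lay at 425 to 711 and WSN libraries at 28.6 to 199.

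No other member of the Dlk1-Dio3 cluster was called. Of 34 tested members on the list, 1 was called, 18 were above 0 and 16 below, with a median log2 fold change of 0.07 against 0.03 for all miRNAs. The other arm of the same hairpin, miR-770-3p, was close to the detection limit, at 3.69, 5.29 and 3.21 in PSN and 4.52, 0 and 5.34 in WSN, which is 7 reads or fewer in each library. The other members with the highest mean over the 18 libraries were miR-300-3p, at 194 ± 52.8 in PSN and 349 ± 208 in WSN, miR-381-3p, at 167 ± 49.2 and 310 ± 197, and miR-379-5p, at 250 ± 120 and 178 ± 37.9 (SD, n = 3 each, PSN first). Their log2 fold changes of -0.67, -0.71 and 0.40 were not called (adjusted p = 0.643, 0.629 and 0.904), and over the alternatives they ranged from -1.23 to -0.23, from -1.28 to -0.23 and from 0.04 to 0.74.

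In the miR-200 family, whose members hold epithelial cells in their state by repressing Zeb1 and Zeb2, 0 members were called, and members with unlike seeds differed in sign. miR-200a-3p and miR-141-3p, which share a seed and nearly all their values here, were at the lowest p after miR-770-5p without being called. The signal of miR-141-3p was 32298, 34469 and 34807 in PSN and 55808, 58422 and 71033 in WSN. The groups stood well apart, and the PSN libraries differed little among themselves. The log2 fold change was -0.86 for miR-141-3p and -0.86 for miR-200a-3p (SE 0.22, adjusted p = 0.110 for both). miR-200b-3p, which carries the other seed of the family, was at 127759, 132859 and 119167 in PSN and 67184, 101455 and 91291 in WSN, again without overlap (log2 fold change 0.57, SE 0.22, adjusted p = 0.342). miR-200c-3p was likewise higher in each PSN library, at 22352 ± 3003 in PSN and 15852 ± 678 in WSN (SD, n = 3 each; log2 fold change 0.49, adjusted p = 0.361). miR-429, whose seed is that of miR-200b, was at 7354 ± 1313 in PSN and 9240 ± 719 in WSN (log2 fold change -0.34, adjusted p = 0.646), so the split did not follow the seed in full.

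The ratio of miR-200b-3p to miR-200a-3p, a value chosen after the data were seen, does not depend on the scaling of a library. It was 3.33 to 3.86 in PSN and 1.17 to 1.70 in WSN. In the remaining groups it was 1.26 to 1.79 in PCN, 0.926 to 1.29 in WCN, 1.66 to 2.27 in PST and 1.51 to 2.06 in PCT, so that the 3 PSN libraries lay above the other 15. The ratio of miR-200b-3p to miR-200c-3p, in contrast, was 5.0 to 6.77 in PSN and 4.23 to 6.69 in WSN. Set against miR-429, which has the same seed, miR-200b-3p gave a ratio of 15.04 to 21.83 in PSN and 7.85 to 10.15 in WSN. Elsewhere that ratio was at most 14.13, in PST, so the 3 PSN libraries again lay above the other 15. miR-200b-3p was higher in every PSN library than in any WSN library, and miR-200a-3p and miR-429 were lower. Its ratios to miR-200a-3p and miR-429 therefore separate PSN from WSN by construction and add no support. Both were picked with these values known. The values of miR-200a-3p are shared with miR-141-3p, so the ratio to it is not particular to miR-200a-3p.

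**Figure D3:**
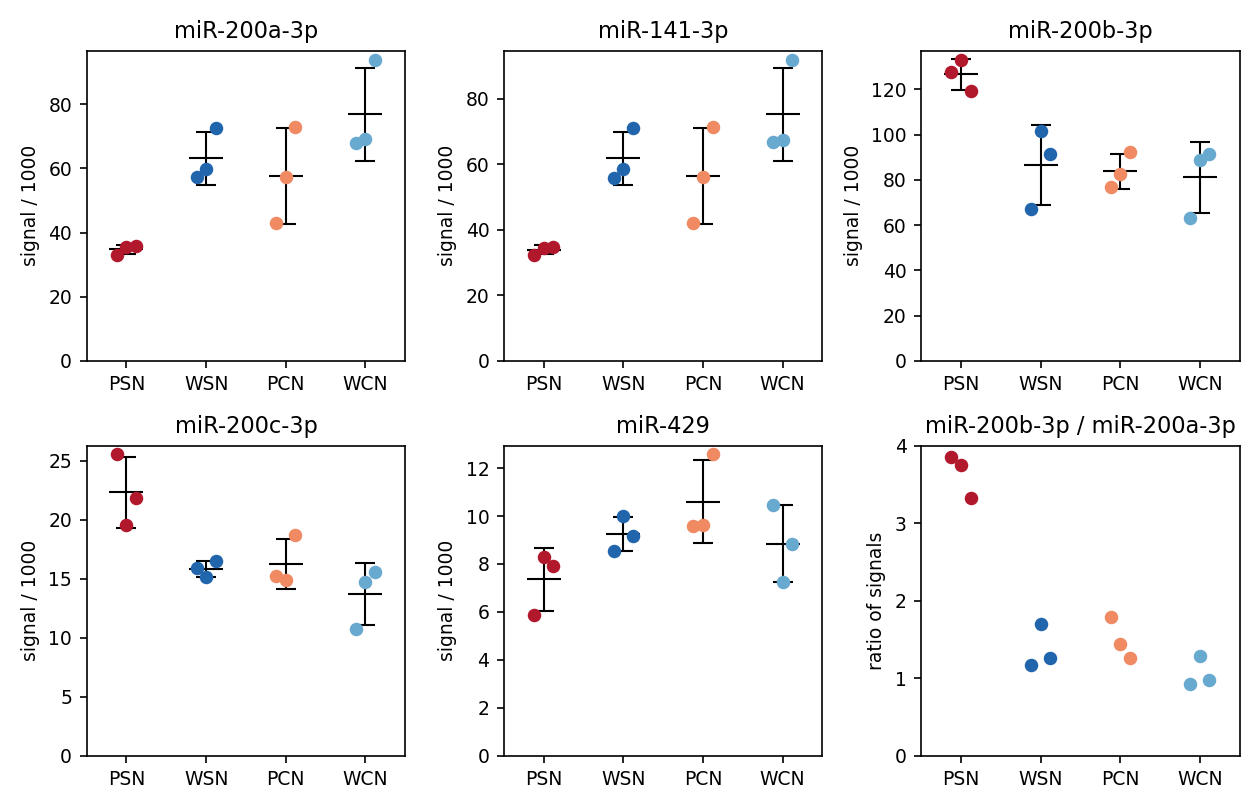
Signal divided by 1000 (y axes) of 5 members of the miR-200 family (points for libraries, bars for the mean and SD of 3) in PSN, WSN, PCN and WCN, and the ratio of miR-200b-3p to miR-200a-3p in each library. miR-200a-3p and miR-141-3p were lower and miR-200b-3p and miR-200c-3p higher in PSN than in WSN, and the ratio was above 3 in PSN libraries only.

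Of the 15 epithelial miRNAs tested, 0 were called (4 at an unadjusted p under 0.05), 7 were above 0 and 8 below, and the median was -0.02. The members at an unadjusted p under 0.05 were miR-200a-3p and miR-141-3p, which share values, miR-200b-3p and miR-200c-3p, and over all miRNAs 59 of 494 were. For the more abundant epithelial markers miR-192-5p and miR-215 the groups overlapped. miR-192-5p was at 334653, 277575 and 381986 in PSN and 197596, 444531 and 366926 in WSN (log2 fold change 0.05, 95% interval -0.53 to 0.63). miR-215, which shares its seed with miR-192, was at 162482, 147966 and 163592 in PSN and 82120, 259108 and 142727 in WSN (log2 fold change 0.12, 95% interval -0.74 to 0.99). For both, the WSN libraries spanned a wider range than the PSN libraries.

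Several muscle miRNAs had lower values in PSN, and none was called. miR-143-3p, the most abundant miRNA over the 6 libraries, was at 473673, 528009 and 273838 in PSN and 955281, 876255 and 624584 in WSN. No PSN library reached the lowest WSN library, and miR-143-3p took 10.6% to 16.7% of all signal in PSN and 21.5% to 33.7% in WSN. The log2 fold change was -0.98 (SE 0.32, adjusted p = 0.237). miR-145-5p, from the hairpin next to it, was at 17179, 9935 and 12778 in PSN and 27387, 28547 and 15441 in WSN, with PSN1 above WSN3 (log2 fold change -0.82, adjusted p = 0.349). The sign was opposite for miR-145-3p, at 5718, 4102 and 3486 in PSN and 4266, 3145 and 2123 in WSN (log2 fold change 0.51, adjusted p = 0.591). miR-1-3p, a miRNA of striated muscle that smooth muscle also holds, was at 9342 ± 3596 in PSN and 8764 ± 3714 in WSN (SD, n = 3 each). Of 10 muscle miRNAs tested, 0 were called (4 at an unadjusted p under 0.05), 3 were above 0 and 7 below, with a median of -0.54. Those 4 count miR-133a-3p and miR-133b-3p, which share values, and 59 of all 494 miRNAs had such a p. The lowest fold change of all 494 was that of miR-133a-3p, counted with miR-133b-3p and miR-133c and named after its values were seen, at 3.69, 0 and 4.50 for miR-133a-3p in PSN and 16.6, 5.81 and 19.6 in WSN (log2 fold change -2.56, adjusted p = 0.349).

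Smooth muscle mRNAs were read from the RNA-seq of the same groups, whose libraries carry the same names, although the labels do not say that a name stands for the same rat in both assays. The summed RPKM of 10 smooth muscle genes was 3030.0 to 4490 in PSN and 2284 to 9506 in WSN. Myh11, the smooth muscle myosin, was at 348, 226 and 314 RPKM in PSN and 737, 345 and 179 RPKM in WSN, with the highest and the lowest value in WSN (log2 fold change -0.30, adjusted p = 0.911). The 10 genes had a median log2 fold change of -0.22, with 2 above 0 and 8 below, and all 11544 genes tested had a median of -0.07. No mRNA was called (0.0% of 11544, 937 at an unadjusted p under 0.05). The part of muscle content in the miR-143-3p result was not tested.

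Markers of other cells were counted in the same way, and 0 were called. The 10 colonocyte genes were all above 0 (median 0.32), with summed RPKM of 2424 to 9205 in PSN and 1865 to 5309 in WSN. Goblet cell genes summed to 5464 to 11230 RPKM in PSN and 4388 to 5340 in WSN, without overlap but with little space between. Of 7 genes, 6 were above 0, and Zg16 was at 4531 RPKM in PSN1 against 829 and 1091 RPKM in PSN2 and PSN3. Retnlb, the gene below 0, had a mean of 28.0 RPKM in PSN and 87.5 RPKM in WSN (log2 fold change -2.20). Endothelial genes, such as Pecam1 at 22.5, 25.0 and 26.3 RPKM in PSN and 43.1, 38.1 and 34.8 RPKM in WSN, were all below 0 (6 of 6, median -0.59), and their sums were 51.9 to 63.4 in PSN and 81.3 to 96.5 in WSN. The endothelial miR-126a-3p, whose hairpin lies in an intron of Egfl7, was at 25420 ± 7825 in PSN and 23507 ± 3276 in WSN (SD, n = 3 each; log2 fold change 0.07, 95% interval -0.44 to 0.59). B and plasma cell genes summed to 10.8 to 35.6 RPKM in PSN and 3.05 to 78.4 in WSN, with 4 of 4 tested above 0. T cell genes summed to 17.4 to 30.4 in PSN and 22.3 to 46.7 in WSN, with 5 of 5 tested below 0 (median -0.29). Neutrophil genes summed to 34.3 to 52.0 RPKM in PSN and 23.3 to 32.4 in WSN, but of 5 tested 3 were above 0 and 2 below (median 0.03), and S100a8 and S100a9 made up most of the sum. Fibroblast genes summed to 466 to 883 in PSN and 457 to 1377 in WSN, and the 5 tested were all below 0 (median -0.31). Over all 11544 genes tested, 7084 were below 0. Of 5 Paneth cell genes, 4 were above 0, and Mmp7 was at 7.50, 1.30 and 10.4 RPKM in PSN and 0.42, 0.11 and 0.24 RPKM in WSN (log2 fold change 2.85, adjusted p = 0.575). The part of these cell types in the miRNA values was not tested.

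Both miR-221 and miR-222 were higher in all PSN libraries, and neither was called. They lie next to each other on chromosome X (chrX:6022682-6023268, + strand), share a seed and are known to repress the cell cycle inhibitor Cdkn1b. miR-222-3p was at 821, 705 and 846 in PSN and 315, 438 and 502 in WSN. miR-221-3p was at 879, 836 and 1063 in PSN and 469, 496 and 579 in WSN, and the minor arm miR-221-5p at 71.7, 94.1 and 86.8 in PSN and 25.6, 45.6 and 54.3 in WSN. The groups did not overlap for any of the 3. Log2 fold changes were 0.94, 0.84 and 1.06 (SE 0.29, 0.26 and 0.33), each with an adjusted p of 0.220. On the control diet they were 0.27, 0.42 and 0.72.

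miR-151-3p, from an intron of Ptk2, was higher in PSN, at 5789, 5782 and 3883 in PSN and 2413, 3099 and 3062 in WSN (log2 fold change 0.83, SE 0.23, adjusted p = 0.134), while Ptk2 itself was at 26.7 ± 2.86 RPKM in PSN and 30.5 ± 2.17 RPKM in WSN (SD, n = 3 each). miR-30e-3p and miR-30a-3p, counted together, were at 4518 to 6061 in PSN and 3058 to 3611 in WSN for miR-30e-3p (log2 fold change 0.60, adjusted p = 0.320). miR-191a-5p was at 24729, 15471 and 20912 in PSN and 13552, 11578 and 15405 in WSN, where PSN2 was only just above WSN3 (log2 fold change 0.58, adjusted p = 0.349). Over 23 pairs of a miRNA and the gene that hosts it, the sign of the log2 fold change was the same in 10.

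The miR-25, miR-93 and miR-106b hairpins lie within Mcm7, and their differences had both signs. miR-25-3p was at 7894, 7902 and 8553 in PSN and 4066, 7519 and 5111 in WSN (log2 fold change 0.59, adjusted p = 0.342). miR-106b-5p was at 67, 83.5 and 91.3 in PSN and 157, 126 and 153 in WSN (log2 fold change -0.85, adjusted p = 0.288). miR-93-5p had a log2 fold change of 0.31, and Mcm7 was at 18.1 ± 6.84 RPKM in PSN and 23.2 ± 6.42 RPKM in WSN (SD, n = 3 each). Across 11 tested miRNAs of the miR-17/92 cluster and its paralogs, which promote proliferation and are raised in many tumors, 0 were called. An unadjusted p under 0.05 was found for 2, and 7 were above 0, with a median of 0.26. Of all 494 miRNAs, 59 had such a p and 256 were above 0. miR-92a-3p was at 6132 ± 268 in PSN and 6685 ± 2061 in WSN (SD, n = 3 each), and miR-20a-5p with miR-20b-5p at 779 ± 213 and 647 ± 138 for miR-20a-5p.

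Among miRNAs lower in all PSN libraries was miR-214-3p, a miRNA of fibroblasts and other mesenchymal cells. It was at 210, 302 and 343 in PSN and 524, 488 and 735 in WSN (log2 fold change -1.03, SE 0.29, adjusted p = 0.134). Its neighbour in the same transcript, miR-199a-5p, was at 3659 ± 1179 in PSN and 4176 ± 449 in WSN (SD, n = 3 each; log2 fold change -0.24). Both arms of miR-339 were lower, with miR-339-3p at 30.1, 45.5 and 45.0 in PSN and 69.3, 65.5 and 159 in WSN (log2 fold change -1.18, adjusted p = 0.237), and miR-339-5p at 51.7, 80.4 and 69.4 in PSN and 143, 91.3 and 191 in WSN (log2 fold change -1.03, adjusted p = 0.278). miR-378a-5p, with its antisense partner miR-3557-3p, was at 191, 130 and 126 in PSN and 309, 195 and 352 in WSN, where PSN1 came close to WSN2 (log2 fold change -0.92, adjusted p = 0.342). miR-101a-3p, known to repress the histone methyltransferase Ezh2, was at 1797, 2764 and 1664 in PSN and 3083, 3016 and 3087 in WSN (log2 fold change -0.60, adjusted p = 0.342). With sample weights estimated by limma, 7 lower miRNAs were called beside miR-770-5p, of which miR-141-3p, miR-200a-3p, miR-214-3p and miR-339-3p are described above, and miR-500-3p, miR-345-5p and miR-3120 are named after their values were seen.

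**Figure D4:**
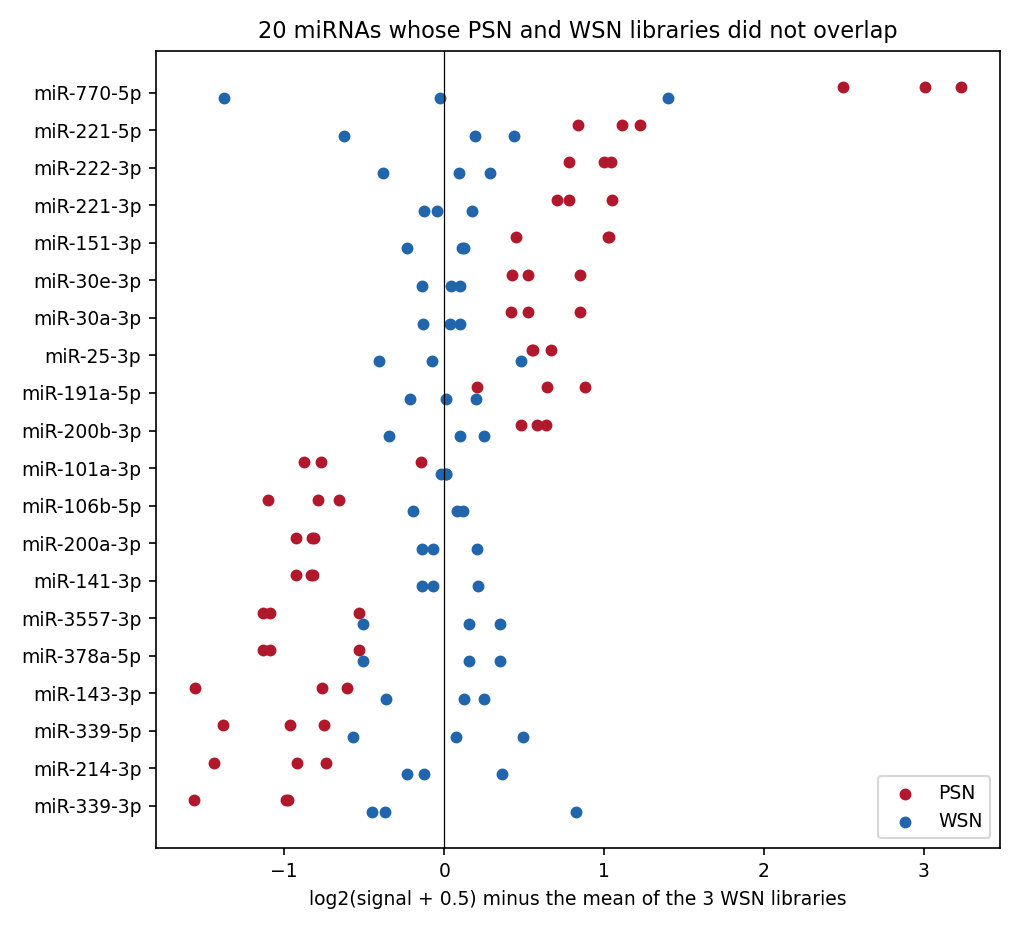
Log2(signal + 0.5) of each library relative to the mean of the 3 WSN libraries (x axis) for 20 miRNAs, 10 higher and 10 lower in PSN, that had a mean signal of at least 50, libraries that did not overlap and the smallest unadjusted p. By this choice PSN and WSN points are apart in each row, to the right for the higher and to the left for the lower miRNAs. miR-770-5p at the top had the highest fold change, 2.91. Rows with shared values are miR-200a-3p and miR-141-3p, miR-30e-3p and miR-30a-3p, and miR-378a-5p and miR-3557-3p.

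Of 11 miRNAs of inflammation and blood leukocytes, 0 were called (4 at an unadjusted p under 0.05), 8 were above 0 and 3 below, with a median of 0.11, and those 4 count miR-146a-5p and miR-146b-5p, which share values (59 of 494 over all miRNAs). miR-146a-5p, which dampens NF-kB signaling and is counted here with miR-146b-5p, was at 7980, 11160 and 7848 in PSN and 7447, 4258 and 6619 in WSN (log2 fold change 0.58, SE 0.25, adjusted p = 0.349). On the control diet it was also higher in every Pirc library, at 8741, 12335 and 8565 in PCN and 6391, 5992 and 6582 in WCN (log2 fold change 0.62). miR-150-5p, a miRNA of mature lymphocytes, was at 664, 554 and 660 in PSN and 999, 485 and 3798 in WSN, where a single WSN library, WSN3, set the mean (log2 fold change -0.97, adjusted p = 0.442). In the RNA-seq library named WSN3, the B cell gene Cd79b was at 41.8 RPKM, against 1.43 RPKM in WSN2 and 2.49 RPKM in WSN1. The labels do not say that both are of the same rat, and a link between these values was not tested. miR-21-5p, raised in many tumors, was at 61313, 196890 and 134510 in PSN and 93330, 141980 and 97998 in WSN (log2 fold change 0.11, 95% interval -0.50 to 0.71). Its other arm, miR-21-3p, was at 7.23 ± 3.53 in PSN and 16.2 ± 8.85 in WSN (SD, n = 3 each; log2 fold change -1.07, adjusted p = 0.405).

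Of 13 miRNAs known from colorectal cancer, 0 were called and 0 had an unadjusted p under 0.05, with 6 above 0 and 7 below. miR-182 was at 10449, 10815 and 13257 in PSN and 6650, 10386 and 9948 in WSN (log2 fold change 0.37, adjusted p = 0.588). The oncogenic miR-31a-5p was at 88.6, 158 and 98.4 in PSN and 54.3, 236 and 109 in WSN, and miR-183-5p and miR-96-5p had log2 fold changes of 0.39 and -0.20. The p53 target miR-34a-5p was at 27.4 ± 7.57 in PSN and 35.0 ± 12.7 in WSN (SD, n = 3 each; log2 fold change -0.31, adjusted p = 0.904). Of 9 let-7 miRNAs, which restrain growth and share their seed, 8 were above 0 (median 0.22) and 0 were called. An unadjusted p under 0.05 was found for 1 of them. Over all 494 miRNAs tested, 256 were above 0 and 59 had such a p. The 9 count let-7g-5p and let-7i-5p, which share values. let-7g-5p, counted with let-7i-5p, was at 64973, 122564 and 55933 in PSN and 63815, 66374 and 66046 in WSN, so that PSN2 alone was higher.

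Among the most abundant miRNAs, miR-148a-3p, counted with miR-148b-3p, was higher in every PSN library, at 215466, 369723 and 194107 in PSN and 128531, 149641 and 186919 in WSN (log2 fold change 0.70, SE 0.36, adjusted p = 0.502), with PSN2 well above the others. miR-30d-5p was at 55898 ± 11563 in PSN and 56304 ± 13982 in WSN. In the Hox clusters, miR-10a-5p was at 51090, 91025 and 30307 in PSN and 41316, 71560 and 25712 in WSN, and miR-10b-5p at 21621 ± 9011 in PSN and 22254 ± 7420 in WSN, while miR-196b-5p and miR-196c-5p had log2 fold changes of 0.59 and 0.55 (adjusted p = 0.588 and 0.629). miR-204-5p, counted with miR-211-5p and placed on the list of neural miRNAs, varied widely within both groups, at 3075, 449 and 1073 in PSN and 2509, 533 and 5301 in WSN. miR-29a-3p and miR-29c-3p, which repress collagens, had log2 fold changes of -0.38 and -0.33 (adjusted p = 0.588 and 0.629). miR-126a-5p, miR-210-3p, a marker of hypoxia, and miR-7a-5p with miR-7b had log2 fold changes of 0.14, 0.06 and 0.38. The red blood cell miRNAs were low, with miR-451-5p at 21.7 ± 8.25 in PSN and 25.3 ± 7.01 in WSN, miR-486 at 181 ± 33.4 and 197 ± 55.4, and miR-144-3p listed at 0 in the 6 libraries. The liver miRNA miR-122-5p was at most 6.33, and miR-802-5p was at 0 in all 6.

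The genotype difference was then set beside that on the control diet, PCN over WCN, which shares no library with it. There, 0 of 494 miRNAs were called (0.0%, 20 at an unadjusted p under 0.05), and 51 did not overlap between groups. The log2 fold changes of the 2 diets correlated across miRNAs at r = 0.01, and at r = 0.19 over the 224 miRNAs with a mean signal of at least 50, as a description, since miRNAs are not independent. The sign was the same for 281 of 494. Only 9 miRNAs had libraries that did not overlap on either diet (11.5% of the 78 on SPI and 17.6% of the 51 on control diet). These shares are close to those over all 494 miRNAs, of which 10.3% did not overlap on control diet and 15.8% on SPI, so the count is no result about these miRNAs. The direction was the same for 6, in which the sets of miR-101 and of miR-146 are counted by both names. These were miR-143-3p, miR-101a-3p and miR-101b-3p, lower in Pirc colon, and miR-146a-5p, miR-146b-5p and miR-221-5p, higher in Pirc colon. miR-143-3p was at 612342, 402196 and 518248 in PCN and 1120260, 1414097 and 800285 in WCN (log2 fold change -1.10 against -0.98 on SPI), so that its difference had about the same size on both diets (interaction 0.13, adjusted p = 0.993). The 3 with opposite directions were miR-770-5p and, named after their values were seen, miR-212-3p (interaction -2.38, adjusted p = 0.524) and miR-3577 (interaction -2.40, adjusted p = 0.947).

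**Figure D5:**
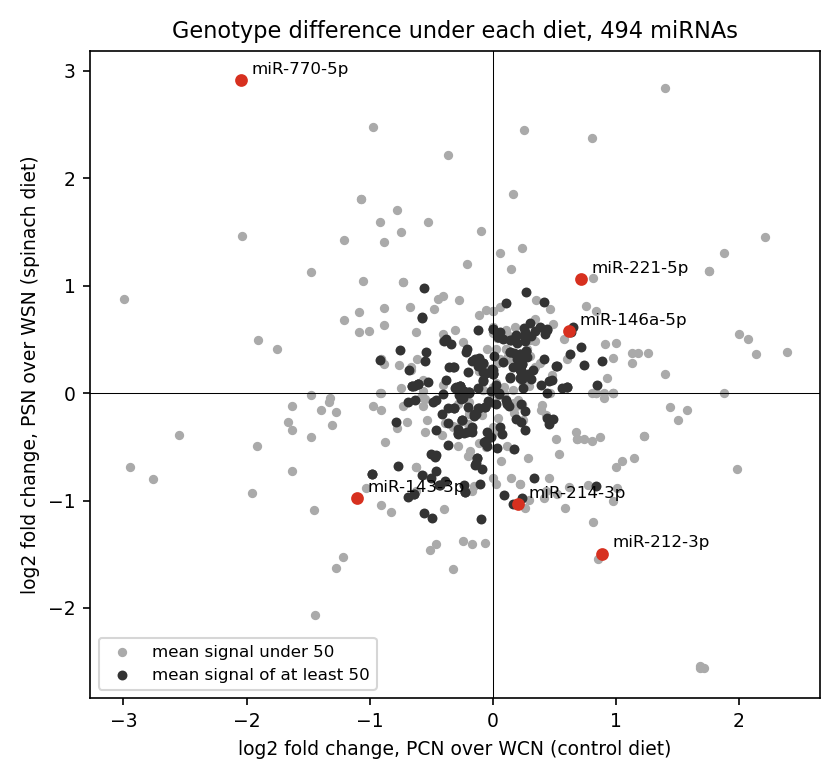
Log2 fold change of Pirc over WT colon for 494 miRNAs on the spinach diet (y axis, PSN over WSN) and on the control diet (x axis, PCN over WCN), with black points for a mean signal of at least 50 and red points for the miRNAs labelled. miR-770-5p lay apart at 2.91 on SPI and -2.05 on control diet, and miR-143-3p was low on both axes.

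Arms named for the same hairpin often differed in sign. Of 41 hairpins whose arms both had a mean signal of at least 50, the sign was the same in 20 (r = 0.32 across hairpins, as a description). Some of these arms share values with an arm of another hairpin, such as miR-200a-3p with miR-141-3p and miR-148a-3p with miR-148b-3p. Such arms cannot be assigned to a single hairpin. miR-378a and its antisense partner miR-3557 both count among the 41 with shared values. miR-143-5p, the minor arm of miR-143, had a log2 fold change of -0.73 (adjusted p = 0.572).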

How the data were processed

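Small RNA libraries (NEBNext, single-end reads of 50 bases) and poly(A) RNA-seq libraries (paired 75 base reads) were made in triplicate for 6 groups. For miRNAs, the authors trimmed adapters with cutadapt, collapsed and counted identical reads, aligned these by blastn against miRBase entries for the rat and used DESeq2. The deposited signal values lay within 0.001 of whole multiples of 0.5 times the smallest value above 0 of a library, which was read as 2 reads. Neither molecular identifiers nor the miRBase release is named in the sources used here. A read may be counted under several names. The deposited RPKM values are read numbers scaled to gene length and library size. Bowtie2 is named in the submitters' notes, while builds and versions were not given in the sources used here. Of 17378 mRNA entries, 26 with names turned into dates were left out.

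The 494 miRNAs that reached a signal of 1 in 3 or more libraries were tested as log2(signal + 0.5), and mRNAs likewise as log2(RPKM + 0.5) (11544 genes), with limma 3.58.1 in R 4.3.3 (trend and robust moderation) in a fit of 18 libraries with a mean for each of 6 groups and 12 residual degrees of freedom. The threshold was an adjusted p under 0.05 (Benjamini-Hochberg). An exact permutation test of 3 against 3 libraries cannot go below 0.1. The precision is limited by 3 libraries a group and, for low miRNAs, by reads. Totals summed over all miRNA names were 1882461 to 5376082 in these libraries, and 3 reads equal a signal of 1.58 to 4.52. The scripts were tested on simulated data. The design foresaw count tests on reads inferred from the steps of the values, and these were not run, since the inference takes the smallest value as 2 reads. Alternatives changed the pseudocount, filter, scaling, libraries in the fit, weights, moderation and replicate block, and left out each library.

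The comparison and all lists were chosen with earlier results of these data known, so no list was tested. Named miRNAs were those called, the 10 higher and 10 lower with the smallest p, a mean of at least 50 and no overlap, the 4 most abundant of each list, the 10 most abundant overall and those the paper names. Sets of nearly the same value differ by at most 0.15 on the log2 scale in every library. Figures used matplotlib 3.10.9, tables pandas 2.3.3.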

Additional observations from a re-analysis of the deposited data

Results flagged for a closer look

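miR-770-5p was singled out because the genotype difference on SPI was unlike that on the control diet. The difference between the log2 fold changes of PSN over WSN and PCN over WCN was 4.96 (limma, adjusted p = 5.46e-04), with every Pirc library above every WT library on SPI and below every WT library on control diet. It was called in each alternative run, including without any single library of the 4 groups. Groups of 3 were not searched for outlying libraries.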

How the results depend on the processing

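The count of 1 called miRNA between PSN and WSN was 0 in a fit of the 6 libraries alone (4 residual degrees of freedom) and 0 without trend and robust moderation, 8 with limma sample weights (1 higher, 7 lower), and 0 to 2 when each library was left out in turn, with 0 without PSN3, WSN1 or WSN3 and 2 without WSN2 (miR-770-5p and miR-345-5p). It stayed at 1 under the other pseudocounts, filters and scalings. miR-770-5p had a log2 fold change of 2.22 to 3.61 and an adjusted p of 8.97e-05 to 0.379 over its alternatives. The cause of the changes was not tested. The interaction count was 1 throughout, and the mRNA count was 0 throughout. Same-numbered PSN and WSN libraries share only a number (correlations of their deviations 0.03, 0.12 and -0.02), and with the replicate number as a block 1 miRNA was called. The study pairs normal-looking tissue and tumor by rat; with same-numbered libraries taken as 1 rat, which is an assumption, 1 miRNA was called (adjusted p = 0.00552 for miR-770-5p).

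Among 70 named miRNAs, 19 that were not called changed sign in some fit. With sample weights miR-451-5p was at 0.035 and miR-126a-3p at -0.13, and scaled to the library total miR-31a-5p was at 0.047 and miR-30d-5p at 0.053. With each library left out, the log2 fold changes ranged from -0.15 to 0.46 for miR-1b, -0.15 to 0.46 for miR-1-3p, -0.30 to 0.29 for miR-192-5p, -0.28 to 0.54 for miR-215, -0.26 to 0.58 for miR-21-5p, -0.21 to 0.12 for miR-486, -0.52 to 0.035 for miR-451-5p, -0.14 to 0.32 for miR-126a-3p, -0.45 to 0.042 for miR-199a-5p, -0.24 to 0.16 for miR-92a-3p, -0.56 to 0.22 for miR-96-5p, -0.53 to 0.53 for miR-31a-5p, -0.12 to 0.45 for let-7g-5p, -0.14 to 0.44 for let-7i-5p, -0.0031 to 0.54 for let-7f-5p, -0.11 to 0.69 for miR-10a-5p, -0.38 to 0.18 for miR-10b-5p, -0.15 to 0.35 for miR-210-3p and -0.16 to 0.19 for miR-30d-5p. Count tests on reads and the scaling that needs them (edgeR, DESeq2) were planned but not run: the deposited values are not counts, and reads could be inferred from their steps only by taking the smallest value of a library as 2 reads. Median-of-ratios scaling was added after seeing the data. Depth limits miRNAs with few reads, such as miR-770-3p and miR-133a-3p.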
